A study of Homo sapiens with 38 samples.

Results

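SIN3 and NCOR are corepressors, protein assemblies that silence genes by bringing histone deacetylases to chromatin. SIN3 is built on the scaffold proteins SIN3A and SIN3B, and sequence-specific repressors of the MAX network and REST recruit it. NCOR is built on the scaffold NCOR1, carries HDAC3 as its deacetylase, and is known for repression by nuclear hormone receptors that have no bound ligand. LSD1, the histone demethylase that NCD38 inhibits, acts beside deacetylases in chromatin repression, and the RNA of 8 genes of these corepressors was examined under NCD38 and its conjugates. The genes were SIN3A and SIN3B, the SIN3 accessory subunits SAP18, SAP30 and ING1, and HDAC3, NCOR1 and TBL1XR1 of the NCOR complex. They were taken by symbol from a table of 25504 genes listed once, and all 8 were among the 10865 genes with a mean of at least 1 FPKM (fragments per kilobase of exon, scaled to mapped fragments), which are called expressed here.

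The cells were RKO, a line from a human colorectal carcinoma, and RNA-seq was performed in 8 conditions with 1 library each. Cells received 0.1% DMSO alone, NCD38, NCD38-β2P4 or NCD38-β2PIPP and were collected on day 30 or on day 4. NCD38-β2P4 (the P4 conjugate) and NCD38-β2PIPP (the PIPP conjugate) carry NCD38 joined through a β-alanine linker to a pyrrole-imidazole polyamide, a small molecule that binds the minor groove of DNA at set base pairs. The P4 polyamide recognises runs of A and T, and PIPP, in which 1 pyrrole is replaced by imidazole, recognises CG flanked by A or T. The labels give 2 μM of each inhibitor in 0.1% DMSO with medium renewed every 5 days, whereas the methods print 2 mM for day 4. No condition had a second library, no RNA library of P4 or PIPP without NCD38 was among those analysed, and culture, day and sequencing of the 2 days cannot be told apart.

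Libraries held about 12100000 to 22600000 fragments, as estimated from the FPKM that 1 fragment gives in genes with 1 annotated transcript. Of 7 colorectal epithelial markers, 4 were expressed. KRT18 was at 76.2 to 121 FPKM and CDX2 at 7.48 to 11.6 FPKM, while KRT20 and VIL1 were listed at 0 and CDH1 did not exceed 0.0642 FPKM. EPCAM was at 3.94 to 6.53 FPKM on day 30 and 0.0922 to 0.867 FPKM on day 4. Summed over their markers, blood (3 markers) was listed at 0, endothelium (2) reached 0.0152 FPKM and mesenchyme (5, of which VIM was expressed) was at 2.20 to 5.88 FPKM. The 2 days differed across the transcriptome with the GC content of the transcript. In DMSO-treated cells the fifth of expressed genes lowest in GC content had a median log2 ratio of day 30 to day 4 of 1.43, and the fifth highest in GC content had -0.69. Values with this trend taken out are given for the members on day 4 and between days, and for the main counts of the wider list.

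The polyamides of the conjugates were designed to read DNA sequence, so the 250 bases before the start sites of the members were searched for their target words. RefSeq promoters on GRCh38.p14 were found for 7 of 8 members, 13 start sites in all, and SAP18 had no entry. The words were 6 bases that are each A or T, and CG with 2 bases that are each A or T on each side. Each keeps its form on the opposite strand, so both strands were covered, and overlapping matches were allowed. A run of 6 A or T bases was present at 6 of 13 member start sites and at 58.7% of the 35116 promoters in the table. The CG word was present at 1 of 13 and at 13.9% of all promoters. Sequences are shown for SAP30, which gave the largest difference between inhibitors on day 4 on the scale of log2(FPKM + 1), for HDAC3, which changed with day and passed 1.5-fold with no inhibitor, and for the 2 start sites of SIN3A, 1 with each kind of word. Each runs 5′ to 3′ on the strand of its gene, and capitals mark the matches.

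SAP30 (chr4:173370704-173370953, plus strand): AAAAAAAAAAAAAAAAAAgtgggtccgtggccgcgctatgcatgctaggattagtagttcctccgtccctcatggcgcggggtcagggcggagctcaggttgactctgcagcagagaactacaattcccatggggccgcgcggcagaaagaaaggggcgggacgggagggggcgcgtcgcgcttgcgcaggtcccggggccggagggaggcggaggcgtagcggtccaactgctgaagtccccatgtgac
HDAC3 (chr5:141636850-141637099, minus strand): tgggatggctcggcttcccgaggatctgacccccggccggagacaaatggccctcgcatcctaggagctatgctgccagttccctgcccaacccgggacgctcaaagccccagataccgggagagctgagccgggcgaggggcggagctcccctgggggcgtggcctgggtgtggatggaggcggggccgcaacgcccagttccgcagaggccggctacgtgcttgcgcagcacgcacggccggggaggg
SIN3A, upstream start site (chr15:75455816-75456065, minus strand): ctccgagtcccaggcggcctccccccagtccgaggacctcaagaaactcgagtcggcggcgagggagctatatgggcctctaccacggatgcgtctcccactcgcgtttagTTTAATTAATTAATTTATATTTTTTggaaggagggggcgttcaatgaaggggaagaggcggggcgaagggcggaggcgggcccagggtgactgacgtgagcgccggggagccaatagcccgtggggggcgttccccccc
SIN3A, downstream start site (chr15:75451691-75451940, minus strand): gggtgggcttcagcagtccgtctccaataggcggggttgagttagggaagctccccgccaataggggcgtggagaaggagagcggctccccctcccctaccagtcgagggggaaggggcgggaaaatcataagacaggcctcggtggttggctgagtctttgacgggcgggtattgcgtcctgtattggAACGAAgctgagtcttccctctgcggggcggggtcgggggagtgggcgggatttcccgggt

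HDAC3 has neither word in this window, SAP30 opens with a run of A, the upstream SIN3A site holds 20 overlapping A or T words in 1 block, and the downstream site holds the single CG word. A match is a description of letters only, and binding was not measured here.

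The 8 genes differed widely in level. Ordered by mean FPKM over the 8 libraries they were SAP18 (69.0), HDAC3 (48.8), SAP30 (12.0), SIN3B (9.98), SIN3A (6.44), ING1 (5.72), TBL1XR1 (4.56) and NCOR1 (1.66). HDAC3 and SAP30 did not overlap in any library, since the lowest HDAC3 value was 25.4 FPKM and the highest SAP30 value 17.6 FPKM. All other neighbours in this order overlapped. SAP18 and HDAC3 exchanged places between days, as SAP18 was above HDAC3 in all 4 libraries of day 30 and below it in all 4 of day 4. Within each library SIN3B exceeded SIN3A in 8 of 8, by 1.12 to 3.49 times, and TBL1XR1 exceeded NCOR1 in 8 of 8, by 1.76 to 3.81 times. FPKM is divided by transcript length, so these are comparisons of levels per length.

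**Figure D1:**
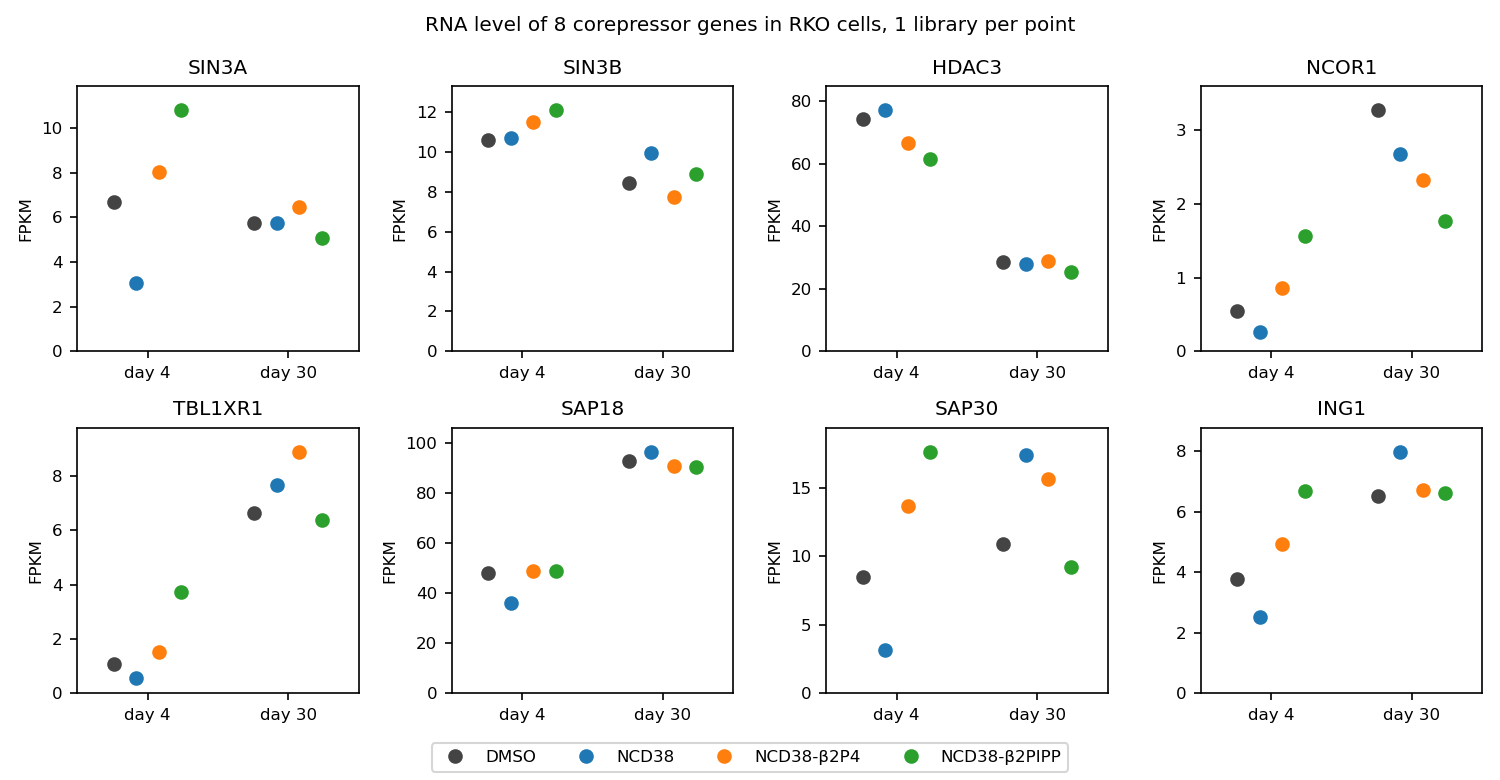
FPKM of each of the 8 genes (vertical axis, from 0, own scale per gene) on day 4 and day 30, with 1 point per library coloured by treatment. HDAC3 and SAP18 lie in 2 separate bands by day, TBL1XR1 is at most 3.74 on day 4 and at least 6.39 on day 30, and SAP30 spreads from 3.16 to 17.6 on day 4.

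Both SIN3 scaffolds were present throughout. SIN3A (GRCh37 chromosome 15, 75661720 to 75748183, minus strand, 21 exons) measured 5.74 FPKM with DMSO, 5.76 with NCD38, 6.44 with the P4 conjugate and 5.06 with the PIPP conjugate on day 30. On day 4 it measured 6.68, 3.06, 8.02 and 10.8 FPKM in the same order. The NCD38 library was thus the lowest and the NCD38-β2PIPP library the highest of all 8, and the days overlapped. SIN3B (chromosome 19, 16940209 to 16991164, plus strand, 19 exons), the second scaffold, measured 8.42, 9.95, 7.75 and 8.88 FPKM on day 30 and 10.6, 10.7, 11.5 and 12.1 FPKM on day 4. It was the steadiest of the 8 genes, with a range of 1.56-fold over all libraries, and its day 4 values all lay above those of day 30.

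SAP18 (chromosome 13, 21714258 to 21723236, plus strand, 4 exons), which is also part of a splicing-associated complex, measured 92.6, 96.3, 90.9 and 90.2 FPKM on day 30 and 48.2, 36.0, 49.0 and 48.8 FPKM on day 4. The days did not overlap, and the single low value within day 4 was that of NCD38. SAP30 (chromosome 4, 174291120 to 174298683, plus strand, 4 exons), which bridges SIN3 and its deacetylases, measured 10.9, 17.3, 15.6 and 9.24 FPKM on day 30. On day 4 it measured 8.52, 3.16, 13.7 and 17.6 FPKM, so NCD38, the highest of the 4 on day 30, was the lowest on day 4, and NCD38-β2PIPP went from lowest to highest. ING1 (chromosome 13, 111365083 to 111375686, plus strand, 2 exons), a reader of trimethylated lysine 4 of histone H3, measured 6.53, 7.98, 6.71 and 6.64 FPKM on day 30 and 3.77, 2.52, 4.93 and 6.68 FPKM on day 4. Its days overlapped only through the NCD38-β2PIPP library of day 4.

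HDAC3 (chromosome 5, 141000443 to 141016416, minus strand, 15 exons), the deacetylase of NCOR, measured 28.7, 27.8, 28.8 and 25.4 FPKM on day 30 and 74.2, 77.1, 66.5 and 61.4 FPKM on day 4. The ranges of the 2 days were far apart, and within a day the 4 treatments lay within 1.13-fold on day 30 and 1.26-fold on day 4. NCOR1 (chromosome 17, 15932379 to 16121499, minus strand, 46 exons), the scaffold that activates HDAC3, measured 3.28, 2.68, 2.33 and 1.77 FPKM on day 30. On day 4 it measured 0.552, 0.263, 0.859 and 1.57 FPKM, the lowest level of the 8 genes on that day. Its pseudogene NCOR1P1 was listed at 0 in 7 libraries and at 0.234 FPKM in DMSO on day 30. TBL1XR1 (chromosome 3, 176737128 to 176945788, minus strand, 16 exons), which helps to exchange corepressors for coactivators, measured 6.65, 7.67, 8.87 and 6.39 FPKM on day 30 and 1.06, 0.578, 1.51 and 3.74 FPKM on day 4. For NCOR1 and TBL1XR1 the days did not overlap, though the NCD38-β2PIPP libraries of the 2 days came closest, at 1.57 and 1.77 FPKM for NCOR1.

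The first comparison asked whether the inhibitors changed these genes after 30 days. Most members stayed near DMSO. A ratio of at least 1.5-fold on the scale of FPKM + 1, which is 0.585 on the log2 scale and understates changes of low genes, was used as a rule of size because 1 library per condition permits no test. With NCD38, SAP30 alone passed it, at a log2 ratio of 0.63, and 1 of 8 members higher stands against 4.00% of expressed genes. With NCD38-β2P4 no member passed in either direction, against 2.30% of genes, and SAP30 was again the highest at 0.48. With NCD38-β2PIPP, NCOR1 alone passed, at -0.63, and 1 of 8 lower stands against 0.911% of genes.

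SAP30 and NCOR1 were also the members furthest out among all expressed genes on day 30. For SAP30, 96.5% of genes had a lower ratio with NCD38 and 97.0% with NCD38-β2P4, while with NCD38-β2PIPP its ratio was -0.22. For NCOR1, only 0.792% of genes had a lower ratio with NCD38-β2PIPP and 2.25% with NCD38-β2P4, where its log2 ratio was -0.36. With NCD38 the NCOR1 ratio was -0.22, so DMSO gave the highest NCOR1 value of day 30 and each inhibitor a lower one. The estimated fragments behind NCOR1 were 626 with DMSO and 427 with NCD38-β2PIPP, and the 95% counting half-width of its log2 ratio without the added 1 (-0.89) was 0.18. For SAP30 with NCD38 that ratio was 0.67 with a half-width of 0.25. These half-widths cover counting error only, and the spread between cultures is unknown. Both calls were near the 1.5-fold line, as SAP30 came to 0.57 with NCD38 once the libraries were rescaled to a median ratio of 0, and NCOR1 to -0.54 with NCD38-β2PIPP against genes of like GC content and length.

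The other 6 members moved little on day 30. Log2 ratios of SIN3A were 0.00 with NCD38, 0.14 with the P4 conjugate and -0.15 with the PIPP conjugate. Those of HDAC3 were -0.05, 0.00 and -0.17, and those of SAP18 were 0.06, -0.03 and -0.04. TBL1XR1 gave 0.18, 0.37 and -0.05, SIN3B 0.22, -0.11 and 0.07, and ING1 0.25, 0.04 and 0.02. Over the 8 members the median was 0.12 with NCD38, 0.02 with the P4 conjugate and -0.10 with the PIPP conjugate, where all expressed genes had medians of 0.06, 0.06 and -0.01.

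**Figure D2:**
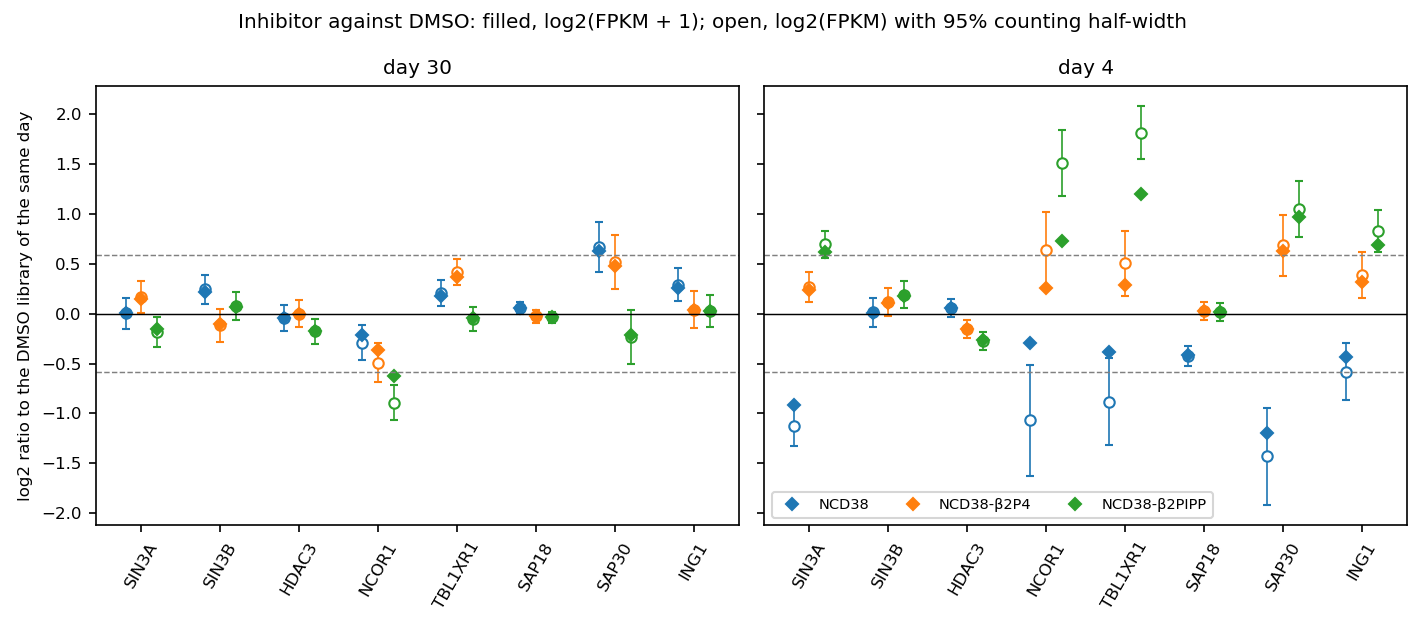
Log2 ratio of each gene to the DMSO library of the same day (vertical axis) for the 3 inhibitors, on day 30 (left) and day 4 (right). Filled diamonds use FPKM + 1, open circles use FPKM with a bar of 1 estimated 95% counting half-width, and dashed lines mark 1.5-fold. On day 30 only SAP30 with NCD38 and NCOR1 with NCD38-β2PIPP have a diamond past a line, and on day 4 the NCD38 values of SIN3A and SAP30 lie low while 5 genes lie high with NCD38-β2PIPP.

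On day 4 the members spread more. With NCD38, SAP30 had a log2 ratio of -1.19 and SIN3A of -0.92, and 2 of 8 members at least 1.5-fold lower stand against 22.5% of expressed genes. With NCD38-β2P4, SAP30 alone passed, at 0.62, against 7.87% of genes higher. With NCD38-β2PIPP, TBL1XR1 (1.20), SAP30 (0.97), NCOR1 (0.73), ING1 (0.69) and SIN3A (0.62) passed, and 5 of 8 higher stand against 27.1% of genes. In the NCD38 and NCD38-β2PIPP libraries of day 4, then, many other genes lay as far from DMSO in the same direction. With 0.1 added to FPKM in place of 1, NCOR1 and TBL1XR1 also passed with NCD38, for 4 members in all. These 2 genes had an estimated 34.6 and 58.0 fragments in that library. The share of all expressed genes that passed at this setting was not computed. In bulk RNA, fewer cells with a transcript and less of it per cell cannot be told apart.

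The other values on day 4 were smaller. With NCD38, ING1 was at -0.44, SAP18 at -0.41, TBL1XR1 at -0.39, NCOR1 at -0.30, HDAC3 at 0.05 and SIN3B at 0.01. NCD38-β2P4 gave 0.32 for ING1, 0.28 for TBL1XR1, 0.26 for NCOR1, 0.23 for SIN3A, 0.11 for SIN3B, 0.02 for SAP18 and -0.16 for HDAC3. Under NCD38-β2PIPP, SIN3B was at 0.17, SAP18 at 0.02 and HDAC3 at -0.27. The median of the 8 was -0.40, 0.25 and 0.65 with the 3 inhibitors in this order, where all expressed genes had -0.21, 0.09 and 0.17.

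In 5 of 8 members (SIN3A, NCOR1, TBL1XR1, SAP30 and ING1) the libraries of day 4 stood in 1 order, with NCD38 lowest, then DMSO, NCD38-β2P4 and NCD38-β2PIPP. The same order was found in 4828 of 10865 expressed genes (44.4%). It was held by 81.3% of the fifth of genes lowest in GC content and by 6.1% of the fifth highest. SIN3B and HDAC3, whose transcripts hold 60.6% and 52.4% GC, did not follow it, nor did SAP18 at 44.5%. TBL1XR1, at 36.0% GC lower than all but 2.29% of expressed genes, did, and so did SAP30 at 51.7%, close to HDAC3.

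Each day 4 ratio was therefore set beside the median of the 500 expressed genes nearest in GC content. For SAP30 this median was -0.22 with NCD38, 0.03 with the P4 conjugate and 0.06 with the PIPP conjugate, so that -0.97, 0.59 and 0.90 remained and all 3 values stayed past 1.5-fold. For TBL1XR1 with NCD38-β2PIPP the neighbours were at 0.70 and 0.50 remained. For NCOR1, ING1 and SIN3A with NCD38-β2PIPP the neighbours were at 0.51, 0.44 and 0.29, leaving 0.22, 0.25 and 0.33. SIN3A with NCD38 kept -0.40 beside neighbours at -0.51. SAP18, at 0.02 with NCD38-β2PIPP, lay 0.51 below its neighbours. SAP30 was thus the 1 member whose day 4 ratios were past 1.5-fold with each inhibitor both as deposited and against genes of like GC content. With NCD38-β2P4, SAP30 was near the line and came to 0.53, not past it, once the libraries were rescaled to a median ratio of 0. Its log2 ratio without the added 1 was -1.43 with NCD38, from an estimated 42.6 fragments against 165 with DMSO, with a counting half-width of 0.49.

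**Figure D3:**
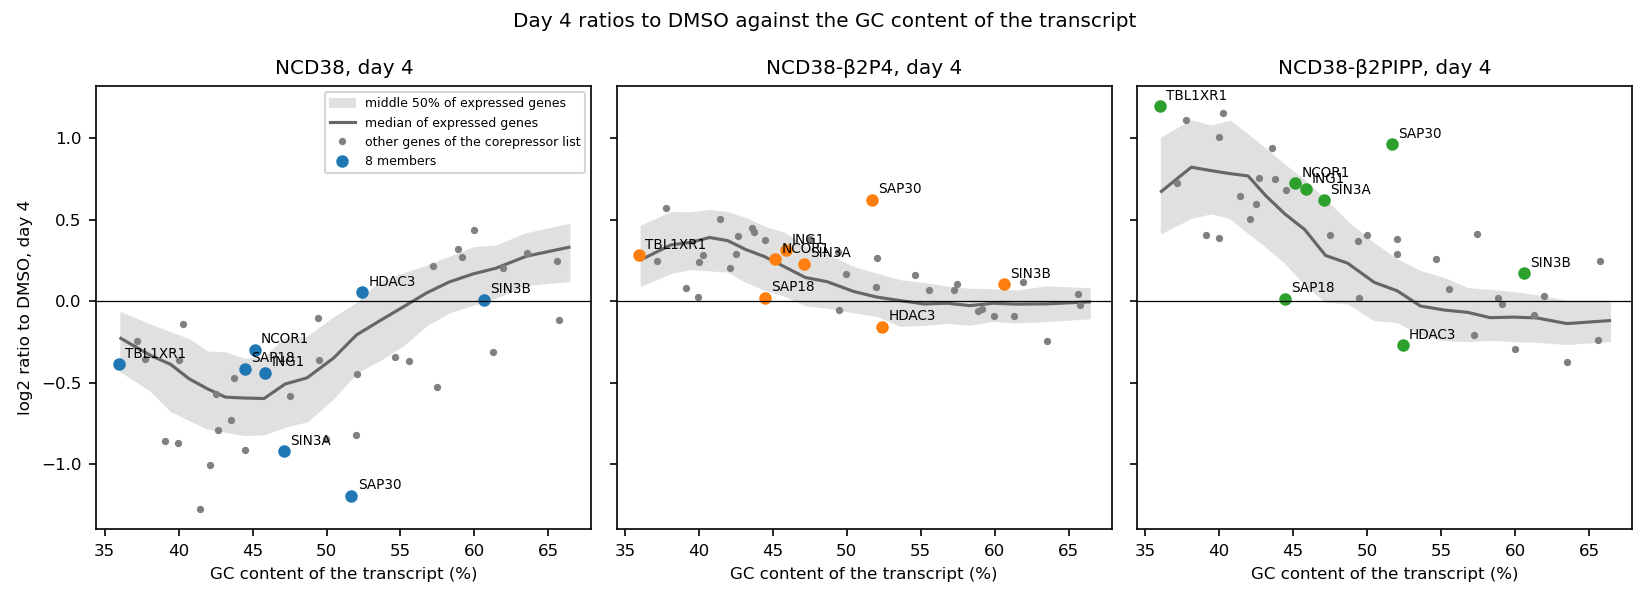
Log2 ratio to DMSO on day 4 (vertical axis) against the GC content of the transcript (horizontal axis, %) for the 3 inhibitors. The line and band are the median and middle 50% of expressed genes in 20 bins of GC content, coloured points are the 8 genes and grey points the other genes of the corepressor list. SAP30 lies outside the band in all 3 panels, below it with NCD38 (-1.19) and above it with NCD38-β2P4 (0.62) and NCD38-β2PIPP (0.97).

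Next, both days were entered in 1 fit, with the 2 libraries of a treatment standing as its repeats and day as a term (limma on all expressed genes, 3 residual degrees of freedom). No member passed an adjusted p of 0.05 for an inhibitor against DMSO, and none had an unadjusted p under 0.05. Without the NCD38 library of day 30, NCD38 rested on its day 4 library alone. The members' median log2 difference from DMSO was then -0.59, where all genes had -0.27. Without the NCD38 library of day 4 it was 0.21, where all genes had 0.13. Among all genes the fit called 0.0368% with NCD38, 0.0184% with NCD38-β2P4, 0.0184% with NCD38-β2PIPP and 0.0276% for the mean of the 3 inhibitors. The intervals were wide for the genes that turned between days. SAP30 gave -0.28 with NCD38 (95% interval -1.97 to 1.40), and NCOR1 gave 0.05 with NCD38-β2PIPP (-0.94 to 1.04). They were narrowest for HDAC3, at 0.00 with NCD38 (-0.37 to 0.38), -0.08 with NCD38-β2P4 (-0.45 to 0.29) and -0.22 with NCD38-β2PIPP (-0.59 to 0.15).

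The compounds share NCD38 and differ in the polyamide, and the dose on the labels and the days were matched, so they were also compared with each other in 3 pairs over the 8 genes, 24 values in all. No member passed, and none had an unadjusted p under 0.05 (limma), where 0.00920% of expressed genes passed for NCD38-β2P4 against NCD38, 0.0184% for NCD38-β2PIPP against NCD38 and 0.0276% for NCD38-β2P4 against NCD38-β2PIPP. With a library left out, its treatment rested on the library of the other day alone. Without NCD38 of day 30 the members' median difference from NCD38 was 0.67 for P4 and 0.81 for PIPP. All genes had 0.36 and 0.41. Without NCD38 of day 4 it was -0.12 and -0.07, where all genes had -0.02 and 0.02. For PIPP against NCD38 it was 0.87 without NCD38-β2PIPP of day 30 and -0.05 without that of day 4. All genes had 0.35 and 0.05. The differences that follow are from all 8 libraries. Adding the P4 polyamide to NCD38 went with a log2 difference of 0.84 in SAP30 (-0.85 to 2.52, adjusted p = 0.71, limma) and 0.64 in SIN3A (-0.38 to 1.67, adjusted p = 0.71). For PIPP the differences from NCD38 were 0.69 in SIN3A (-0.33 to 1.71, adjusted p = 0.53, limma), 0.68 in TBL1XR1 (-0.44 to 1.80, adjusted p = 0.53) and 0.66 in SAP30 (-1.02 to 2.34, adjusted p = 0.60). The PIPP values average days that disagreed in sign. On day 30 the log2 ratios to NCD38 were -0.16, -0.23 and -0.84 in these genes, and on day 4 they were 1.54, 1.59 and 2.16. For NCD38-β2P4 against NCD38, SAP30 was at -0.14 on day 30 and 1.82 on day 4, and SIN3A at 0.14 and 1.15. On day 30 all 8 members were lower with NCD38-β2PIPP than with NCD38, against 59.6% of expressed genes. On day 4, 7 of 8 were higher, against 66.4%.

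The 2 conjugates differ in 1 ring of the polyamide, and the fit over both days resolved no difference between them in the members. SAP18 differed by 0.01 (-0.46 to 0.47), SIN3A by -0.05 (-1.07 to 0.98), SIN3B by -0.12 (-0.62 to 0.37) and HDAC3 by 0.14 (-0.23 to 0.51). NCOR1 differed by -0.10 (-1.09 to 0.89), ING1 by -0.18 (-1.07 to 0.71), SAP30 by 0.18 (-1.50 to 1.86) and TBL1XR1 by -0.25 (-1.37 to 0.87). Each interval holds 0 and, for SAP30, TBL1XR1, SIN3A, ING1 and NCOR1, also a change of more than 1.5-fold in both directions. On single days the ratio of NCD38-β2P4 to NCD38-β2PIPP was larger in some members. SAP30 was at 0.70 on day 30 and -0.34 on day 4, and TBL1XR1 at 0.42 and -0.92. On day 30, 1 of 8 members was at least 1.5-fold higher, against 2.38% of expressed genes. On day 4, 1 of 8 was lower, against 8.77%.

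Day was the other factor of the design, and 4 of 8 members passed the test for it. In the fit over the 4 treatments, HDAC3 was lower on day 30 by a log2 difference of -1.30 (SE 0.11, adjusted p = 0.00058, limma). TBL1XR1 was higher by 1.74 (SE 0.32, adjusted p = 0.0056), SAP18 by 1.02 (SE 0.13, adjusted p = 0.0017) and NCOR1 by 0.99 (SE 0.28, adjusted p = 0.026). Thus 3 of 8 members rose and 1 fell, against 30.2% of expressed genes that rose and 31.7% that fell. The balance depended on the scaling. With libraries centred on their median, 4 rose and 2 fell, as ING1 and SIN3B also passed (30.9% and 34.3% of genes), and under quantile normalization 2 rose and 3 fell, as NCOR1 was lost and SIN3A and SIN3B passed (30.4% and 37.4%). These scalings moved the median day difference of all genes from -0.02 to -0.13 and -0.14. The libraries of the 2 days did not overlap for 5 of 8 members, against 62.6% of genes. The members' shares lie near this background and are no result about them as a group.

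The remaining 4 did not pass. SIN3B gave -0.33 (SE 0.14, adjusted p = 0.091, limma), ING1 0.59 (SE 0.25, adjusted p = 0.088), SAP30 0.44 (SE 0.48, adjusted p = 0.45) and SIN3A -0.17 (SE 0.29, adjusted p = 0.63). HDAC3 and its partners in NCOR, NCOR1 and TBL1XR1, went in opposite directions. The ratio of HDAC3 to NCOR1 was 8.78, 10.4, 12.3 and 14.4 on day 30 with DMSO, NCD38, NCD38-β2P4 and NCD38-β2PIPP, and 134, 293, 77.5 and 39.1 on day 4. That of HDAC3 to TBL1XR1 was 4.32, 3.63, 3.24 and 3.97 on day 30 and 69.7, 134, 44.1 and 16.4 on day 4. The days lay closest with NCD38-β2PIPP for both ratios. Many other genes were also closest there. The fifth of expressed genes lowest in GC content had a median log2 ratio of day 30 to day 4 of 0.67 with NCD38-β2PIPP. It was 1.43 with DMSO, 1.94 with NCD38 and 1.30 with NCD38-β2P4.

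Within single treatments, the ratio of day 30 to day 4 was at least 1.5-fold higher for 4 members and lower for 1 in DMSO, where 33.0% of genes were higher and 30.6% lower. In NCD38 the counts were 6 and 1 (44.4% and 28.5% of genes), in NCD38-β2P4 3 and 1 (30.3% and 30.9%) and in NCD38-β2PIPP 2 and 3 (22.0% and 35.1%). HDAC3 was lower in each, at -1.34 in DMSO, -1.44 in NCD38, -1.18 in NCD38-β2P4 and -1.24 in NCD38-β2PIPP. SAP18 was higher in each, at 0.93, 1.40, 0.88 and 0.87 in that order. TBL1XR1 was at 1.89, 2.46, 1.98 and 0.64 and NCOR1 at 1.46, 1.54, 0.84 and 0.11, with the least difference in NCD38-β2PIPP for both. SAP30 ran from 2.14 in NCD38 to -0.86 in NCD38-β2PIPP.

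GC content moved with these day differences too. With the trend with GC content removed from every library, HDAC3 kept -0.89 (adjusted p = 0.0021, limma), SAP18 0.53 (adjusted p = 0.018) and NCOR1 0.61 (adjusted p = 0.022). TBL1XR1 fell to 0.12 and no longer passed (adjusted p = 0.50), and 0.31 (adjusted p = 0.10) remained when transcript length was taken into the trend. SIN3B turned to 0.38 (adjusted p = 0.049), where the 500 genes nearest to it in GC content had a median ratio of day 30 to day 4 of -0.71 in DMSO, and ING1 came to 0.33 (adjusted p = 0.040). For NCOR1 the call also rested on single libraries. It was lost without either DMSO library, either NCD38 library or either NCD38-β2P4 library, with adjusted p-values between 0.069 and 0.11 (limma) and differences between 0.80 and 1.04.

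**Figure D4:**
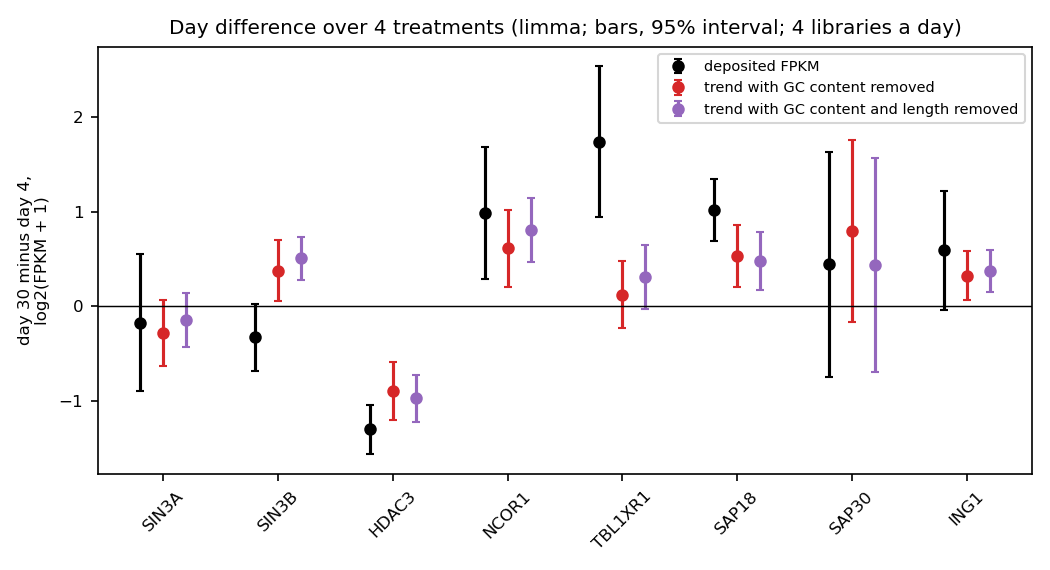
Log2 difference between day 30 and day 4 over the 4 treatments (vertical axis, limma estimate, bar of 95% interval, 4 libraries a day) for each gene, from the deposited FPKM (black), with the trend with GC content removed (red) and with that of GC content and length removed (purple). HDAC3 stays below 0 in all 3, at -1.30 as deposited, SAP18 and NCOR1 stay above 0, TBL1XR1 drops from 1.74 to 0.12 and SIN3B turns from -0.33 to 0.38.

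A wider list of 47 corepressor genes, with the other SIN3 and NCOR subunits and the factors that recruit them, put the members in context. Of these, 39 were expressed. By day, 10 of 39 rose and 12 fell (limma), against 30.2% and 31.7% of expressed genes, and the libraries of the 2 days did not overlap for 22, against 62.6%, so the list lay near or below the background. Single libraries moved these counts, and the shares of all expressed genes moved too. Without DMSO of day 30, 5 rose and 5 fell, against 20.1% and 22.1% of genes. Without NCD38-β2P4 of day 30 it was 5 and 5, against 21.3% and 23%. Without NCD38 of day 30 it was 7 and 16, against 28.8% and 36.6%. Without NCD38-β2PIPP of day 30 it was 12 and 8, against 32.9% and 28.8%. Leaving out the day 4 library of the same treatment gave the same counts but for DMSO (5 and 4, against 20.1% and 21.9%). With the trend with GC content removed, 9 rose and 12 fell, against 25.7% and 30.1% of genes. Among the deacetylases, HDAC2 rose on day 30 by 2.23 (adjusted p = 0.0017, limma) while HDAC1 fell by 0.50 (adjusted p = 0.019), a call lost under quantile normalization (adjusted p = 0.27). TBL1X, the relative of TBL1XR1, was below TBL1XR1 in all 4 libraries of day 30 and above it in all 4 of day 4. This exchange was read from the deposited FPKM, and the day difference of TBL1XR1 did not pass with the GC trend removed. Thyroid hormone receptor THRA, which recruits NCOR, fell by 1.69 (adjusted p = 0.0013), and MXI1, a MAX partner that recruits SIN3, rose by 1.57 (adjusted p = 0.0019). With the GC trend removed, 0.77 remained for HDAC2, -1.002 for THRA and 0.95 for MXI1, and all 3 still passed (adjusted p = 0.0023, 0.0035 and 0.0035, limma). The list was set with earlier results of these data known, and its median day difference was -0.07 beside -0.02 for all genes tested.

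For the inhibitors no gene of the list passed the fit, with 0 to 2 of 39 at an unadjusted p under 0.05 in each contrast (limma). With a library left out, the list's median differences depended on which day remained. For NCD38 against DMSO the median was -0.58 without NCD38 of day 30 and 0.17 without that of day 4. All genes had -0.27 and 0.13. For NCD38-β2P4 against NCD38 it was 0.67 and -0.05 in that order, where all genes had 0.36 and -0.02. For NCD38-β2PIPP against NCD38 it was 0.80 and -0.04, where all genes had 0.41 and 0.02. On day 30, 1 list gene was at least 1.5-fold higher and 1 lower with NCD38, against 4.00% and 2.80% of expressed genes, none either way with NCD38-β2P4, against 2.30%, and 2 were lower with NCD38-β2PIPP, against 0.911%. MXI1 was the lowest with NCD38 (-0.65), followed by BCL6 (-0.51), a repressor that binds NCOR, and OGT (-0.48), a SIN3-bound glycosyltransferase. BCL6 was also the lowest with NCD38-β2PIPP (-0.64), beside NCOR1. The histone-binding subunits RBBP4 (0.52) and RBBP7 (0.50) led with NCD38-β2P4, next to SAP30.

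On day 4, 11 of 39 were lower with NCD38, 1 was higher with NCD38-β2P4 and 15 were higher with NCD38-β2PIPP, against 22.5%, 7.87% and 27.1% of expressed genes. Set against genes of like GC content, 4 list genes were past 1.5-fold with NCD38 and 1 with NCD38-β2PIPP. The share of all expressed genes past it after this correction was not computed, so these counts have no background beside them. RBBP4 (-1.28) and OGT (-1.003) flanked SAP30 at the low end with NCD38, and BRMS1 (0.44), a SIN3 subunit, was highest. ING2 (1.15), the relative of ING1, and HDAC2 (1.12) followed TBL1XR1 with NCD38-β2PIPP, where MXD4 (-0.37) was lowest. The order of libraries seen in 5 members was held by 26 of 39 list genes, beside 44.4% of all expressed genes, a share that ran from 81.3% to 6.1% with rising GC content. The medians of the list on day 4 were -0.37 with NCD38, 0.17 with the P4 conjugate and 0.41 with the PIPP conjugate, beside -0.21, 0.09 and 0.17 for all expressed genes.

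Profiles over the 8 libraries were compared by the root mean square (RMS) difference of log2(FPKM + 1), each gene centred on its mean. Among members, NCOR1 lay closest to SAP18 (0.24) and ING1 closest to NCOR1 (0.26), whereas HDAC3 and TBL1XR1 were the most distant pair (1.60). The expressed gene most like each member was RRP1B for SIN3A (0.055), PI4KA for SIN3B (0.048), BCR for HDAC3 (0.052), HABP4 for NCOR1 (0.12), ASCC3 for TBL1XR1 (0.088), C12orf65 for SAP18 (0.074), EIF4G2 for SAP30 (0.087) and PIGN for ING1 (0.056). For comparison, the SD of the members' own profiles ran from 0.19 in SIN3B to 0.97 in TBL1XR1. With 8 libraries and all other expressed genes to choose from, these are descriptions of likeness only.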

How the data were processed

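RNA of RKO cells was measured in 8 libraries, 1 per condition, and 30 ChIP-seq samples of the series were not analysed here. The authors prepared stranded mRNA libraries, aligned reads with TopHat per their methods (the submitters' processing notes name HISAT2 2.2.1.0 and Cufflinks), and deposited FPKM estimated with Cufflinks. The notes list hg19 as genome build, and whether counting used strand is not given in the sources used here. FPKM holds no counts, so depth and fragments per gene are estimates from the FPKM of 1 fragment.

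Entries whose name occurred more than once (90 of 25594) were left out. From the deposited FPKM, log2(FPKM + 1) was compared between libraries with Python 3.11.15, and limma 3.58.1 (R 4.3.3) was fitted on treatment and day over 10865 genes with a mean FPKM of at least 1, with Benjamini-Hochberg adjustment over all of them. These p-values rest on the disagreement between days or between treatments, not on repeat cultures. GC content and length came from GENCODE transcripts on GRCh37, matched for 93.7% of expressed genes. Promoters came from RefSeq. The functions were tested on simulated data with planted changes larger than 1.5-fold, so recovery of changes of that size was not tested.

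Genes named are the 8 members, of the corepressor list those past the test for an inhibitor or a pair of compounds, or else up to 3 with the largest ratio in each direction per comparison, and the 1 most similar expressed gene per member. HDAC1, NCOR1P1 and the genes of the closing observations were named, and TBL1X set beside TBL1XR1, after their values were seen. The members and lists were chosen with earlier results of these data known. Alternatives changed the pseudocount, filter, scaling, GC content, DMSO comparator, threshold, model and libraries, and correction for GC content with length was added after seeing the data.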

Additional observations from a re-analysis of the deposited data

Results flagged for a closer look

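SAP30 with NCD38 and NCOR1 with NCD38-β2PIPP each passed 1.5-fold against DMSO in opposite directions on the 2 days. With 1 library per condition this difference was not tested. SAP30 stood at a log2 ratio of 0.63 on day 30 and -1.19 on day 4, a difference of 1.82. For NCOR1 it was -0.63 on day 30 and 0.73 on day 4, a difference of -1.36. Among the 10865 expressed genes, 178 (1.64%) were opposite past 1.5-fold on the 2 days with NCD38 and 72 (0.663%) with the PIPP conjugate. On day 4 the 500 genes nearest to NCOR1 in GC content had a median of 0.51 with NCD38-β2PIPP, and for the 500 nearest to SAP30 it was -0.22 with NCD38.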

How the results depend on the processing

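The fold counts in this paragraph and the next have no share of all expressed genes beside them, since none was computed under these settings. They describe dependence on the setting only. Counts of members past 1.5-fold on day 30 against DMSO moved most with the DMSO library of day 4 as comparator. They came to 6 with NCD38, 6 with the P4 conjugate and 5 with the PIPP conjugate, since that setting adds the day difference. Between the DMSO libraries of the 2 days, 63.6% of expressed genes were past 1.5-fold. The same swap on day 4 gave 7 with NCD38 and 4 with NCD38-β2P4, and it reversed the ratios with NCD38-β2PIPP of TBL1XR1 (-0.69), HDAC2 (-1.36), ING2 (-0.022) and NCOR1 (-0.73 on day 4, 0.83 on day 30) and that of MXI1 with NCD38 on day 30 (1.32). With libraries rescaled, counts were 0 with NCD38 on day 30, 0 with NCD38-β2P4 on day 4 and 2 with NCD38-β2PIPP on day 4. Correction for GC content left 1 with NCD38 and 1 with the PIPP conjugate on day 4, as did GC content with length, which left 0 with NCD38-β2PIPP on day 30. A pseudocount of 0.1 gave 4 with NCD38 on day 4. At 2-fold the counts were 0 with NCD38 and NCD38-β2PIPP on day 30, and 1 with NCD38, 0 with the P4 conjugate and 1 with the PIPP conjugate on day 4.

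Between days, correction for GC content gave 3 members in DMSO, 3 in NCD38 and 2 in NCD38-β2PIPP and turned TBL1XR1 in NCD38-β2PIPP to -0.36. With length as well, 3 passed in DMSO and 4 in NCD38. At 2-fold, 3 passed in DMSO, 2 in NCD38-β2P4 and 1 in NCD38-β2PIPP. For the list, rescaling gave 1 gene with NCD38 on day 30, 0 with the P4 conjugate and 6 with the PIPP conjugate on day 4, a pseudocount of 0.1 gave 20 with NCD38 and 4 with the P4 conjugate on day 4, and correction for GC content gave 4 with NCD38 and 1 with the PIPP conjugate on day 4 and, by day, 9 in DMSO, 8 in NCD38, 9 in NCD38-β2P4 and 13 in NCD38-β2PIPP. The causes were not tested.

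In the limma fit, 0 members passed for an inhibitor or a pair of compounds under every alternative run, including without each library. For day, the count of 4 became 6 with libraries centred on their median, 5 under quantile normalization, 5 with the GC trend removed and 5 with that of GC content and length removed, 3 to 4 without a library and 2 with at least 1 FPKM in all libraries, a filter that removes NCOR1 and TBL1XR1. Where 1 library was left out, its partner from the other day stood alone and was assumed to vary like the rest. Day differences reversed for SIN3A without either NCD38-β2PIPP library (0.089, with a range of -0.48 to 0.089 over libraries left out), for SAP30 without either NCD38 library (-0.12, range -0.12 to 0.88), and for SIN3B with the trend with GC content (0.38) or GC content and length (0.51) removed. No paired analysis by replicate was possible because the labels give no replicate numbers to block on, but the fit on treatment and day takes the day difference within treatments. Depth limits NCOR1, TBL1XR1 and SAP30 most on day 4, with an estimated 34.6, 58.0 and 42.6 fragments in the NCD38 library.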

Other observations

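Of the 47 corepressor genes, 8 fell under the mean of 1 FPKM. Of these, 5 (SAP25, BRMS1L, ARID4A, ARID4B and NR1D2) were higher in all 4 libraries of day 30 than in any of day 4, as were 18.9% of the 7111 genes under this mean that were above 0 in any library. TBL1Y went the other way, as did 5.08% of those genes, and CORO2A (0.520 to 1.06 FPKM on day 30, 0.867 to 1.52 on day 4) and THRB overlapped. Transcripts of BRMS1L, ARID4A, ARID4B and NR1D2 hold 36.9% to 39.4% GC and that of SAP25 69.5%, and the part of the GC trend in these values was not tested. Among the SIN3 subunits, BRMS1L was at 1.15 to 1.48 FPKM on day 30 and 0.117 to 0.579 on day 4, ARID4A at 0.691 or more and 0.0521 to 0.177, and ARID4B at 1.17 to 1.93 and 0.0945 to 0.304. The nuclear receptor NR1D2 was at 1.30 to 1.54 FPKM on day 30 and at most 0.325 on day 4, and THRB was listed at 0 in 7 of 8 libraries. These genes were chosen after their values were seen and entered no test in the fit as reported.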
